A study of Mus musculus with 4 samples.

Results

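Frizzled genes encode membrane receptors that bind secreted Wnt ligands through a cysteine-rich outer domain and pass the signal to dishevelled proteins inside the cell. With the co-receptors Lrp5 or Lrp6 the signal spares beta-catenin from destruction and lets it act with TCF/LEF factors in the nucleus, and other frizzled signals act on cell polarity, axon growth or calcium. In the brain the pathway is known for axon guidance, synapse assembly and blood vessel formation. The genes described are Fzd1 to Fzd9, 9 of the 37620 Ensembl gene identifiers in the deposited tables, matched to symbols by identifier. The family was chosen by its Fzd7 values: Fzd7 had fewer counts in the mutant than in the wild-type library of both cell types, and its relatives were taken with it by name. Values of that contrast are therefore a description and carry no test.

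RNA sequencing was run on neurons sorted for GFP from the corpus striatum of male FVB/NJ mice aged 5 to 6 months. BACHD mice were hemizygous for a bacterial artificial chromosome (BAC) that carries full-length human huntingtin with 97 glutamines under its own Htt regulatory sequence, and wild-type (WT) littermates lacked it. Every animal also carried an EGFP reporter BAC, Drd1-EGFP or Drd2-EGFP, which marked the neurons of the direct pathway (D1) and of the indirect pathway (D2). Each of the 4 groups had 1 library, a pool of sorted cells from 4 animals that gave 150000 cells apiece. Where 4 values follow each other they are those of WT and then BACHD in D1 cells, followed by WT and then BACHD in D2 cells. Cell type therefore cannot be told apart from reporter line, and no group has a replicate pool.

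The libraries held 41325647 to 44523622 estimated counts, and mitochondrially encoded genes took 5.87% to 9.34% of them. Levels are given as CPM, counts per 1000000 after TMM scaling of the library sizes, and between genes as the authors' FPKM, which is also per length. Drd1 reached 914.0 and 816.5 CPM in the D1 libraries, against 18.4 and 13.3 CPM in the D2 libraries, and Drd2 had 20.2 and 20.4 CPM against 2095 and 2033 CPM, so the reporter labels matched these markers. All 11 listed markers of medium spiny neurons were detected in every library. The transgene is human, so the genotype labels were not checked against it here. Summed markers of cortical glutamatergic neurons came to 29.8, 144.7, 3.22 and 5.48 CPM, the D1 BACHD library being the highest.

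Because Fzd1, Fzd2 and Fzd7 are close relatives, their shared sequence bears on whether a read of 50 bases can be assigned. The longest exact run shared by the transcripts of any pair among the 9 genes was 47 bases, and Fzd1, Fzd2 and Fzd7 shared no stretch of 50 bases with a transcript of any other gene (GENCODE M21, either strand). The runs below lie in coding sequence and are shown because they are the longest of the 3 pairs among these genes, in lower case throughout. Coordinates are GRCm38, given first for the gene named first.
Fzd1 and Fzd2, 47 bases, chr5:4756331-4756377 (minus strand) and chr11:102605740-102605786 (plus strand): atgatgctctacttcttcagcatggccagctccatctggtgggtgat
Fzd1 and Fzd7, 47 bases, chr5:4756964-4757010 (minus strand) and chr1:59483344-59483390 (plus strand): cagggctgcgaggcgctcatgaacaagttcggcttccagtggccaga
Fzd2 and Fzd7, 38 bases, chr11:102606064-102606101 (plus strand) and chr1:59484298-59484335 (plus strand): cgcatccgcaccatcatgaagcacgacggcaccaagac

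Fzd7 lies at chr1:59482424-59486955 on the plus strand and Fzd1 at chr5:4753839-4758035 on the minus strand, and each has 1 exon in its longest coding transcript (GENCODE M21, GRCm38). Fzd2, Fzd8 and Fzd9 also have 1 exon, Fzd4 and Fzd5 have 2, and Fzd3 and Fzd6 have 7. All 36 deposited counts of the 9 genes were whole numbers (within 1e-09), although 15.9% of all entries in the table were not. Fzd5 is the member with the most shared sequence, 16.4% of its 50-base stretches, all of it with Gm38058 (either strand). Fzd6 shared 2.12% with Gm26704. The authors' use of strand is not given in the sources used here, so reads from these shared stretches cannot be told apart.

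Fzd1 and Fzd7 are the members for which the cell types differed by the test below, so their promoters are shown. RefSeq (GRCm38.p6) gives a promoter for 5 of the 9 genes, and the 250 bases before the start site are printed 5′ to 3′ on the gene's strand. The RefSeq start sites lie upstream of the GENCODE starts printed above for both genes, and distances are counted from the RefSeq ones. Capitals mark CTTTGA or CTTTGT, the core letters bound by TCF/LEF factors, on either strand. The motifs differ in their last letter only, so a position matches at most 1 of them on a strand, and no matches overlapped here.
Fzd7, chr1:59481897-59482146, plus strand: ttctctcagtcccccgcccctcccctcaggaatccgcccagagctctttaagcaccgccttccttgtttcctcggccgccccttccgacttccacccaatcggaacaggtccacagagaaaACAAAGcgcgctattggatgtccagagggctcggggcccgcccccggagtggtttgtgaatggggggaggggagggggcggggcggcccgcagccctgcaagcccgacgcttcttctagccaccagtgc
Fzd1, chr5:4758217-4758466, minus strand: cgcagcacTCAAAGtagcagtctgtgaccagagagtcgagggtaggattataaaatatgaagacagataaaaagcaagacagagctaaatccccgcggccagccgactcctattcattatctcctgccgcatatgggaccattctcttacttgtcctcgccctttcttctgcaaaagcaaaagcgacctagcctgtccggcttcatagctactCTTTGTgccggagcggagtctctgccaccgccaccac
The Fzd7 window held 1 match, starting 129 bases before the start site, and the Fzd1 window 2, at 242 and 37 bases. Of 27025 promoters, 1 per gene, 27.7% held either motif, and a match is a description of the letters, not a site. The Fzd7 window was 65.2% G and C with 17 CpG pairs and the Fzd1 window 51.2% with 12, against medians of 52% and 6 over all promoters.

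Frizzled transcripts were scarce in every library, and the family as a whole summed to 19.9, 14.7, 17.4 and 14.5 CPM, lower in the BACHD library of either cell type. By FPKM the order of the means over the 4 libraries ran Fzd3 (1.49 ± 0.198 SD), Fzd1 (0.793 ± 0.372), Fzd5 (0.605 ± 0.108), Fzd7 (0.580 ± 0.599), Fzd9 (0.293 ± 0.0245), Fzd2 (0.114 ± 0.00887), Fzd4 (0.0964 ± 0.0168), Fzd6 (0.0534 ± 0.0330) and Fzd8 (0.0258 ± 0.0194). The 4 libraries differ in cell type and genotype, so this SD is a spread over conditions. Neighbours in this order overlapped in range except Fzd9 and Fzd2, whose ranges of 0.259 to 0.314 and 0.106 to 0.127 FPKM were apart. Fzd3 had the highest frizzled FPKM in all 4 libraries. Lower RNA per cell and fewer cells that express a gene cannot be told apart in these pools.

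**Figure D1:**
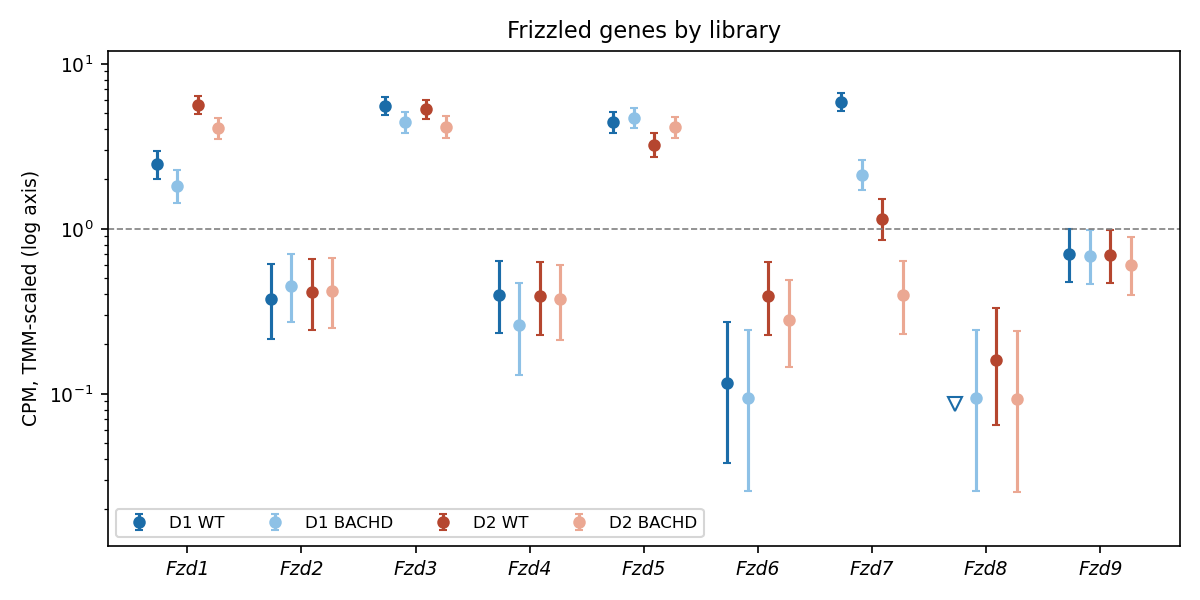
TMM-scaled CPM of the 9 frizzled genes in each of the 4 libraries on a log axis, with exact Poisson 95% intervals that cover counting error only; the dashed line is 1 CPM, and the open triangle is the upper bound for Fzd8 in D1 WT, where no count was recorded. Fzd1, Fzd3, Fzd5 and Fzd7 reach above 1 CPM, and Fzd7 spans 0.396 to 5.87 CPM.

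Of the 9 genes, 4 passed the filter of at least 1 CPM in 2 libraries (Fzd1, Fzd3, Fzd5 and Fzd7), and the other 5 did not and are given by their counts. Fzd3, which guides axon growth and planar polarity, had 238, 187, 231 and 178 counts. Fzd1, a receptor of beta-catenin signalling, had 105, 77, 246 and 174 counts. Both genes were lower in the BACHD library of either cell type, and for Fzd1 the D2 libraries stood above both D1 libraries. Fzd5, a receptor needed for eye and yolk sac vessel development in the mouse, had 189, 199, 140 and 177 counts.

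Fzd7, a receptor best known from stem cells of the gut, had 251 and 90 counts in the D1 libraries, and 50 and 17 counts in the D2 libraries. D1 WT was the highest and D2 BACHD the lowest library, and the D1 BACHD library stayed above D2 WT. The exact Poisson 95% intervals of its level ran from 5.17 to 6.64 CPM, 1.71 to 2.62, 0.854 to 1.52 and 0.231 to 0.635 in library order, and none overlapped. No other tested frizzled gene had this order.

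Among the scarce members, Fzd9, which in humans lies in the Williams syndrome deletion, had 30, 29, 30 and 26 counts, nearly level over the libraries. Fzd2, a receptor for Wnt5a, had 16, 19, 18 and 18 counts, and Fzd4, the Norrin receptor of blood vessels, had 17, 11, 17 and 16. At these counts a 95% interval on a level spans a wide range, from 0.130 to 0.466 CPM for Fzd4 in D1 BACHD. Fzd6, which acts with Fzd3 in planar polarity, had 5, 4, 17 and 12 counts, the D2 libraries being higher. Fzd8 had 0, 4, 7 and 4 counts, and the 0 in D1 WT allows up to 0.0702 CPM by the limit of 3 counts for a count of 0, while its exact Poisson 95% interval, as plotted, ends at 0.0863 CPM. Fzd10, outside the set, had 1 count, in D2 BACHD, and Smo, the frizzled relative that carries Hedgehog signals, stood between 0.842 and 1.35 CPM.

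The first comparison asked how D1 and D2 cells differ in these receptors, a contrast the choice of genes did not use directly. The 1 residual degree of freedom of the fit compares the BACHD to WT ratios of D1 and D2 cells. Fzd7 was chosen for falling in both, so its SE and p-value are not independent of the choice. Fzd7 had 5.87 and 2.13 CPM in the D1 libraries, against 1.15 and 0.396 CPM in the D2 libraries. It was lower in D2 cells by 5.18-fold, a D2 minus D1 log2 difference of -2.37 ± 0.22 (SE; edgeR quasi-likelihood test, Benjamini-Hochberg adjusted p = 0.000233, 2 pools per cell type). Within each genotype the log2 difference was -2.35 in WT (95% counting interval -2.82 to -1.91) and -2.43 in BACHD (-3.27 to -1.67). Fzd1 went the other way, with 2.46 and 1.82 CPM in the D1 libraries, against 5.66 and 4.06 CPM in the D2 libraries. It was higher in D2 cells by 1.18 ± 0.17 on the log2 scale (adjusted p = 0.00227), with 1.20 in WT (0.87 to 1.55) and 1.15 in BACHD (0.76 to 1.56). For both genes every library of the higher cell type stood above every library of the lower.

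Fzd3 did not differ beyond its error, with a log2 difference of -0.08 ± 0.14 (edgeR adjusted p = 0.775), and Fzd5 had -0.32 ± 0.16 (adjusted p = 0.238). Within WT libraries Fzd5 was at -0.46 (95% counting interval -0.78 to -0.13) and within BACHD libraries at -0.19 (-0.49 to 0.11). Of the untested members, Fzd6 had 1.74 (0.24 to 3.53) in WT and 1.56 (-0.16 to 3.65) in BACHD, higher in the D2 library of both genotypes. Of 13400 genes tested, 6.81% were called higher and 10.2% lower in D2 cells (adjusted p under 0.05), against 1 and 1 of the 4 frizzled genes tested. With library totals as the scale the 913 higher and 1361 lower genes became 735 and 2198, while Fzd1 and Fzd7 stayed called in the same directions. Fitted with cell type alone on 3 libraries, Fzd7 was at -3.33 and still called without D2 WT, but was not called without D1 WT (-1.46, adjusted p = 0.101) or without D2 BACHD (-1.80, adjusted p = 0.159). Fzd1 was not called without D1 BACHD (0.99, adjusted p = 0.0512) or without D2 WT (0.92, adjusted p = 0.136). Over all alternatives the adjusted p ran from 6.86e-06 to 0.159 for Fzd7 and from 0.00121 to 0.136 for Fzd1. On log2 FPKM with 1 added the differences shrank to -0.71 for Fzd7 and 0.47 for Fzd1, both still called by limma-trend.

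Marker sums moved with these differences. Interneuron markers, 8 of them measured, summed to 23.5 and 30.8 CPM in D1 libraries and 6.95 and 7.09 in D2 libraries. Of these markers 4 passed the filter. Chat and Pvalb were lower in the D1 libraries, unlike Sst, Npy, Nos1, Kit, Lhx6 and Vip. The cortical marker sums given above were also higher in D1 libraries. Within D1 cells both sums were higher in BACHD, where Fzd7 was lower. Endothelial markers, 8 measured, summed to 2.41, 3.51, 7.48 and 4.36 CPM beside the 5, 4, 17 and 12 counts of Fzd6. Fzd4 had 17, 11, 17 and 16 counts, the same in D1 WT and D2 WT. The endothelial sum was, like Fzd1, higher in both D2 libraries and highest in D2 WT. Within D1 cells they went opposite ways in BACHD, the endothelial sum being higher and Fzd1 lower (1.82 against 2.46 CPM). Only 1 endothelial marker passed the filter. Astrocyte markers summed to 59.8, 78.1, 83.5 and 85.0 CPM and microglia markers to 45.6, 49.7, 54.4 and 62.4 CPM, again higher in D2 cells. The mitochondrial share of counts was 5.87%, 8.03%, 8.37% and 9.34%, the reverse of the Fzd7 order over the libraries. The part of these measures in the frizzled values was not tested.

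**Figure D2:**
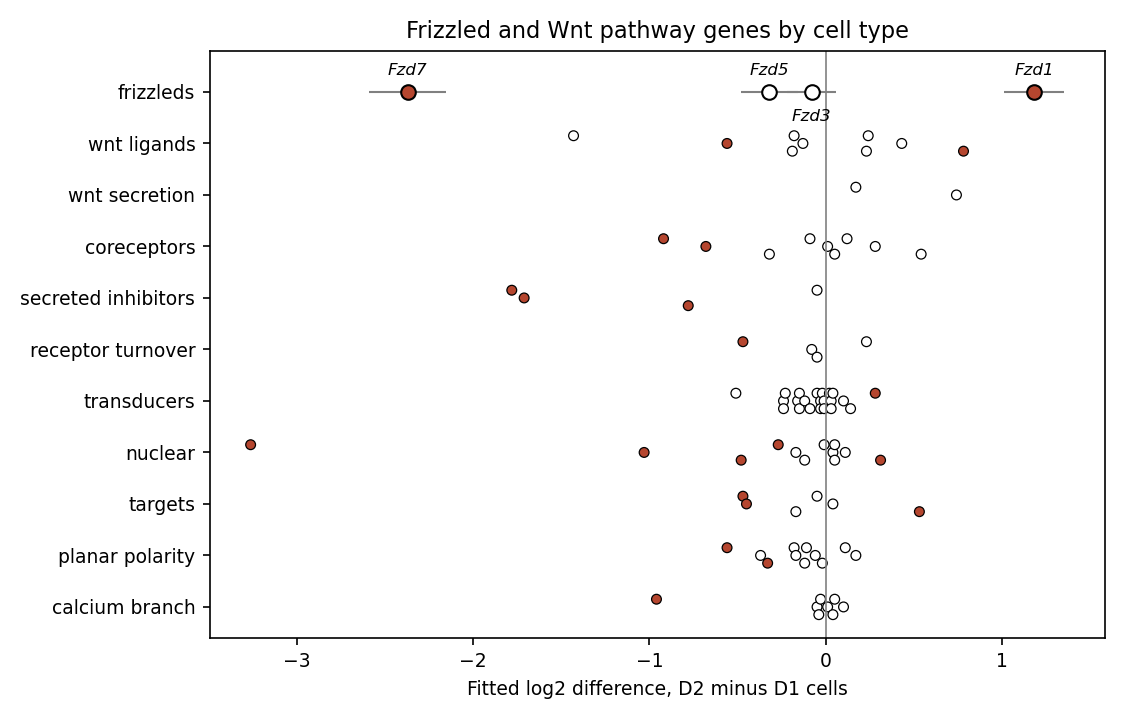
Fitted log2 difference, D2 minus D1 cells, for the 4 frizzled genes tested (bars are SE) and for each tested Wnt pathway gene by list; filled points were called at an edgeR adjusted p under 0.05. Fzd7 lies at -2.37 and Fzd1 at 1.18, on opposite sides of Fzd3 and Fzd5.

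The make-up of the frizzled pool differed between the cell types. By FPKM, Fzd7 made up 29.3% of the summed frizzled level in the WT library of D1 cells but 6.23% in that of D2 cells, and Fzd1 made up 11.7% and 29.5%. Fzd3 held from 34.0% in D1 WT to 38.9% in D1 BACHD. In the BACHD libraries Fzd7 made up 14.4% in D1 and 2.75% in D2 cells, and Fzd5 made up 19.5% and 17.3%, against 13.5% and 10.8% in WT. These shares have no replicate.

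**Figure D3:**
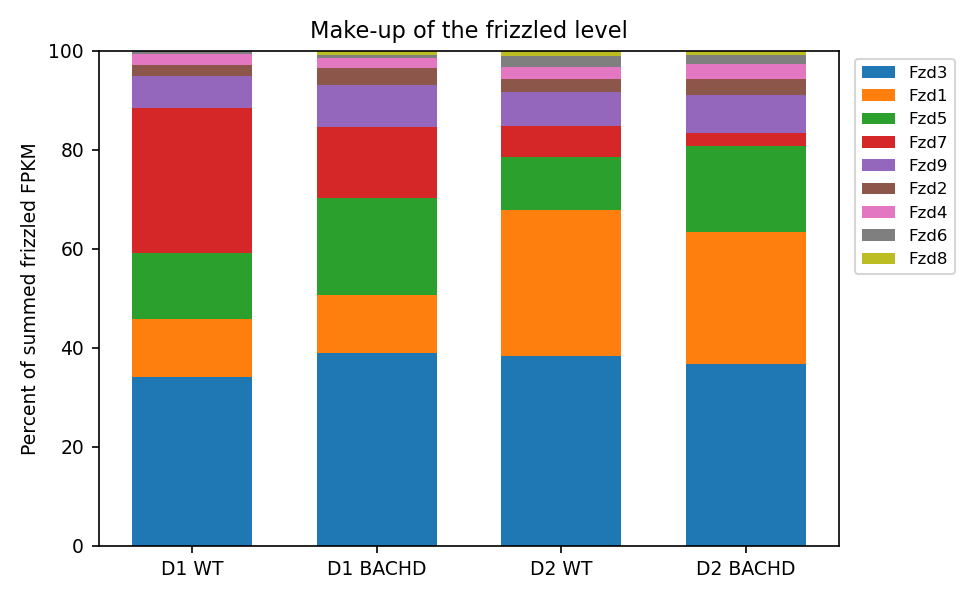
Share of each frizzled gene in the summed FPKM of the 9 genes, 1 bar per library. Fzd7 takes 29.3% of the D1 WT bar and 2.75% of the D2 BACHD bar, and Fzd1 takes 29.5% of the D2 WT bar.

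The next comparison set BACHD against WT within each cell type, to describe how the receptors stood in the presence of full-length mutant huntingtin. Fzd7 in the BACHD library was at 36.3% of its WT level in D1 cells, a log2 ratio of -1.46 (95% counting interval -1.83 to -1.11). In D2 cells it was at 34.5%, a log2 ratio of -1.54 (-2.42 to -0.72). The ratios of the cell types differed by -0.08 (-1.04 to 0.83), an interval that reached about 1 on the log2 scale either way. Fzd7 was chosen for falling in both cell types, so this interval cannot show whether the ratios are alike. These intervals come from exact conditional tests on the counts and cover counting error only, not the spread between pools.

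Of all genes tested, 0.284% in D1 and 0.313% in D2 cells were at least 2-fold lower in BACHD with an interval that left out a ratio of 1. Fzd7 was the frizzled gene among them in both cell types, and it was chosen for that. The mitochondrial share was higher in the BACHD library of both cell types (8.03% against 5.87% in D1 and 9.34% against 8.37% in D2 cells), and its part in the Fzd7 values was not tested. Fzd3 had log2 ratios of -0.33 (-0.61 to -0.05) in D1 and -0.36 (-0.65 to -0.07) in D2 cells, and Fzd1 had -0.43 (-0.87 to 0.01) and -0.48 (-0.77 to -0.19). Fzd5 stood higher in BACHD, by 0.09 (-0.20 to 0.39) in D1 and 0.36 (0.03 to 0.69) in D2 cells. Counting intervals of Fzd2, Fzd4, Fzd6 and Fzd9 included a ratio of 1 in both cell types. They were wide, from -1.01 to 1.05 for Fzd2 in D2 cells and from -0.82 to 0.76 for Fzd9 in D1 cells. Fzd8 had -0.79 (-3.01 to 1.19) in D2 cells on 7 and 4 counts, and 0 and 4 counts in D1 cells. Without Fzd7 the summed frizzled level was 14.0, 12.6, 16.2 and 14.1 CPM, still lower in the BACHD library of either cell type.

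**Figure D4:**
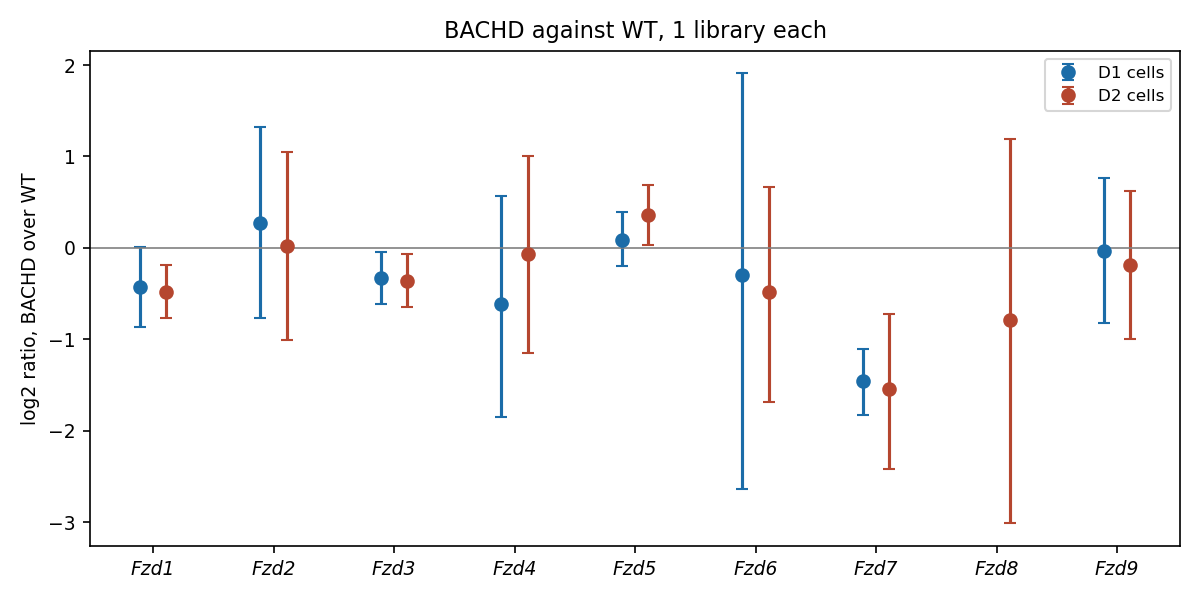
Log2 ratio of BACHD to WT for each frizzled gene in D1 and D2 cells, 1 library per group, with exact conditional binomial 95% counting intervals; Fzd8 in D1 cells is left out because its WT count was 0. Fzd7 lies at -1.46 and -1.54, and intervals of the scarce members span 0.

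Genes whose levels over the 4 libraries were most like those of Fzd7 were sought among the 10756 tested genes that averaged 5 CPM or more, by Euclidean distance of log2 CPM centred on each gene's mean. The nearest were Erbb4, a neuregulin receptor gene (distance 0.994), Cntnap3, of the contactin-associated family (1.05), St8sia3os (1.21), Gnb4, a G protein beta subunit gene (1.22), and Nrg3, a neuregulin gene (1.39). Erbb4 stood at 18.8, 14.7, 3.54 and 2.21 CPM and St8sia3os at 10.4, 4.62, 4.37 and 2.05 CPM. The fitted BACHD minus WT log2 differences were -0.47 for Erbb4, -0.42 for Cntnap3, -1.14 for St8sia3os, -0.40 for Gnb4 and -0.16 for Nrg3. Except for St8sia3os, these falls were far short of the Fzd7 ratios of -1.46 in D1 and -1.54 in D2 cells. St8sia3os is named as an antisense transcript, and its reads cannot be told apart from those of its partner without strand. Over 4 points such likeness is a description of these libraries.

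Other genes, nearly all of the Wnt pathway, in 10 lists, give the setting of the receptors. Of 128 listed genes, which include Fzd10 and Smo, 126 were matched and 84, Smo among them, passed the filter. Among them 4 were higher and 15 lower in D2 than D1 cells (4.76% and 17.9%, against 6.81% and 10.2% of all genes). The median log2 difference of the 84 was -0.05, against -0.00 over all genes tested. The 15 include Dkk2 and Tle3, which passed the filter only through the D1 libraries and so had to stand lower in D2 cells. How many such genes are among all genes called lower is not given here. With total-count scaling 4 pathway genes were called higher and 22 lower in D2 cells, against 735 and 2198 of all 13400 genes tested. DESeq2 called 3 and 10, against 565 and 765 of all genes. With cell type as the only term the counts on all 4 libraries were 1 higher and 12 lower. The share of all genes called in that last fit is not given here.

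Among ligands, Wnt2 had a mean of 13.3 FPKM over the libraries and Wnt7a 5.66 FPKM, and the other 18 had lower means. Wnt2 was lower in D2 cells by 0.56 ± 0.07 on the log2 scale (26.5 and 30.3 against 18.7 and 19.7 CPM; adjusted p = 0.00141), and Wnt7a was higher by 0.78 ± 0.09 (8.75 and 13.7 against 16.5 and 21.6 CPM; adjusted p = 0.000955). Of the 9 ligands tested, 1 was called in each direction, against 6.81% higher and 10.2% lower of all genes tested. Porcn, which acylates Wnts, stood at 86.4 to 100.1 CPM, and Wls, which carries Wnts to the surface, at 0.983 to 2.33 CPM. Neither was called.

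Among co-receptor and other Wnt receptor genes, Ryk had a mean of 19.4 FPKM and Lrp6 5.61 FPKM, above the 1.49 FPKM of Fzd3, whereas Lrp5 had 0.0626 FPKM. Ror1, a receptor kinase gene (-0.92 ± 0.11), and Adgra2, which acts with Reck in Wnt7 signalling of brain vessels (-0.68 ± 0.09), were lower in D2 cells, 2 of 9 tested. Smo, which carries Hedgehog signals, is counted among the 9. Over all genes tested 10.2% were called lower in D2 cells, and neither this list nor those that follow were tested as a set. Of antagonists, 3 of 4 tested were lower in D2 cells, Dkk2 (-1.78 ± 0.30), Dkk3 (-1.71 ± 0.34) and Kremen1, a receptor for Dickkopf proteins (-0.78 ± 0.08). The Dkk3 difference was -0.79 in WT (95% counting interval -1.04 to -0.54) and -2.55 in BACHD (-2.78 to -2.32), the D1 BACHD library being the highest at 25.9 CPM and also the one with the cortical marker sum of 144.7 CPM. The part of the cortical markers in the Dkk3 value was not tested. Dkk2 passed the filter only through the D1 libraries, so it had to stand lower in D2. Znrf3, the ligase that removes frizzleds from the surface, was lower in D2 cells by 0.47 ± 0.08 on the log2 scale (25.1 and 19.9 against 17.3 and 15 CPM), the 1 called of 4 tested in its list.

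Of 22 dishevelled and destruction complex genes tested, Apc was higher in D2 cells (0.28 ± 0.05) and none was lower. For the lists in this paragraph, the shares over all genes tested were 6.81% higher and 10.2% lower, and no list was tested as a set. In the nuclear list, 1 was higher, the Groucho co-repressor gene Tle4 (0.31 ± 0.05), and 4 of 12 were lower. They included Tle3 (-3.26 ± 0.21), Tle2 (-1.03 ± 0.10) and Bcl9, a beta-catenin cofactor gene (-0.48 ± 0.07). Tle3 passed the filter only through the D1 libraries, so it had to stand lower in D2. Of 6 targets tested, Axin2, a feedback inhibitor (-0.45 ± 0.08), and Znrf3 were lower and Myc was higher (0.53 ± 0.12). In the planar polarity list Ankrd6 (-0.56 ± 0.06) and Prickle1 (-0.33 ± 0.08) were lower, 2 of 11, and in the calcium list Camk2d (-0.96 ± 0.12), 1 of 8.

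By genotype over both cell types, 0 of the 84 pathway genes were called by edgeR, against 0.440% of all genes tested, and 6 stood higher and 4 lower at an unadjusted p under 0.05. Among all 13400 genes 6.37% stood higher and 7.07% lower at that unadjusted threshold, against 7.14% and 4.76% of the pathway genes. DESeq2 called 0 pathway genes, and 24 higher and 53 lower of all genes. Limma-trend on FPKM called 0 of all genes with 0.1 added and 1 with 1 added, so its 0 for the pathway says nothing particular to these genes. Wnt7a was at 0.50 ± 0.09 (BACHD minus WT log2 difference, edgeR adjusted p = 0.0888) and Kremen1 at -0.41 ± 0.08 (adjusted p = 0.110), and both were called with library totals as the scale. The deposited FPKM of Wnt7a in D1 cells, 4.61 in WT and 4.45 in BACHD, did not follow its CPM of 8.75 and 13.7.

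Within D1 cells 3 pathway genes were at least 2-fold higher in BACHD with an interval above 0, which is 3.57% of those tested against 1.02% of all genes. Dkk3 stood at 8.66 and 25.9 CPM (log2 ratio 1.58, 1.41 to 1.75), Wnt7b at 1.24 and 2.91 CPM (1.23, 0.76 to 1.73) and Vangl2, a planar polarity gene, at 0.959 and 1.92 CPM (interval 0.44 to 1.58). Wnt7b and Vangl2 were outside the rule for named genes and are named after their values were seen, as are 2 scarce genes below the filter, Wnt9a (13 and 65 counts) and Frzb (7 and 44 counts). The cortical marker sum moved the same way, from 29.8 to 144.7 CPM, and all 7 of its genes were higher in D1 BACHD. Its part in these values was not tested. No pathway gene passed as lower in D1 cells or in either direction in D2 cells, against 0.284% of all genes lower in D1, 0.276% higher in D2 and 0.313% lower in D2 cells.

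**Figure D5:**
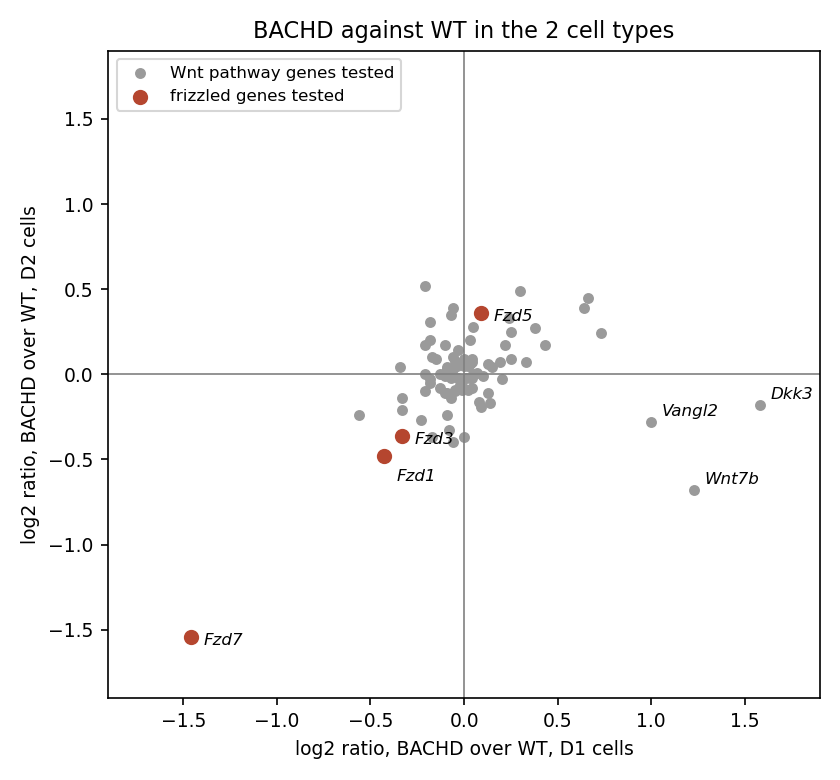
Log2 ratio of BACHD to WT in D1 cells (x axis) and D2 cells (y axis) for the Wnt pathway genes tested (grey) and the 4 frizzled genes tested (red), 1 library per group. Fzd7 lies at -1.46 and -1.54, and Dkk3, Wnt7b and Vangl2 lie to the right, with Dkk3 at 1.58 in D1 cells.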

How the data were processed

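The authors deposited estimated counts per Ensembl gene, not all whole, and FPKM values scaled by length and library size. Per the submitters' processing notes CASAVA 1.8.2 took part in this. No aligner, counting tool, strand setting, annotation or build is named (not given in the sources used here). The labels' design text gives paired reads of 50 bases.

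Counts were rounded to whole numbers. Identifiers were matched to symbols for 32897 of 37620 genes, and the others held 1.52% of counts. Genes with at least 1 CPM of the library total in 2 libraries were tested (13400). edgeR 4.0.16 (R 4.3.3) fitted cell type and genotype on all 4 libraries by quasi-likelihood with TMM scaling (factors 0.976 to 1.026). This fit has 1 residual degree of freedom and a median of 6.67 prior degrees of freedom, so its p-values rest largely on variance shared across genes, and 1 library per group leaves no measure of spread between pools. Calls needed an adjusted p (Benjamini-Hochberg) under 0.05. Each SE is the log2 change divided by the square root of F.

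Ratios of BACHD to WT within D1 or D2 cells carry no test. Counts under 3 were set to 3 for ratios. The 95% intervals are exact and, since PCR copies are not independent molecules, cover counting error only.

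Alternatives were total-count scaling, DESeq2 1.42.0, no filter, a filter of 10 CPM, limma-trend (limma 3.58.1) on log2 FPKM plus 0.1 or 1, FPKM ratios, a ratio of 1.5, the tested term alone and leaving out each library. The fits and the intervals were tested on simulated data. Named pathway genes are up to 4 called genes per list with the largest change and a mean of at least 1 CPM, or the 2 most abundant by FPKM where none was called. The members and lists were chosen with earlier results of these data known.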

Additional observations from a re-analysis of the deposited data

Results flagged for a closer look

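Among the 84 pathway genes tested, 4 had counting intervals that left out a ratio of 1 in opposite directions in the cell types. That is 4.76% of them, against 4.66% of all genes tested. The log2 ratio of BACHD to WT differed, D2 minus D1, by -0.28 for Prickle1 and by 0.26 for Invs, both planar polarity genes. It differed by -0.31 for Csnk1e, a casein kinase gene, and by 0.09 for Camk2b, a calcium-dependent kinase gene. Prickle1 had 46.0 (WT) and 49.1 CPM (BACHD) in the D1 libraries, against 40.5 and 35.5 CPM in the D2 libraries. Csnk1e had 84.7 and 93.2 CPM, against 96.8 and 85.8 CPM. With 1 library per group none of these differences was tested. Fzd7 could not meet this criterion, since it was chosen for falling in both cell types. Of the other frizzled genes tested, Fzd1, Fzd3 and Fzd5, none met it. Invs, Csnk1e and Camk2b are outside the rule for named genes and were named after their values were seen.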

How the results depend on the processing

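No paired analysis was possible because each group had 1 library and the labels give no replicate numbers. With each library left out and cell type as the only term (2 changes at once), the call of Fzd1 or of Fzd7 was lost. Fewer pathway genes were called in D2 against D1 cells than in the main fit, in both directions. Each such fit leaves 1 library in a cell type, so its number of calls is not given. Fzd3, never called, ranged over these fits from -0.27 (without D2 WT) to 0.09, changing sign to 0.09 without D1 WT and without D2 BACHD. The other alternatives gave 1 frizzled gene in each direction, except the filter of 10 CPM, under which none of the 9 was left to test. Pathway genes called higher in D2 cells were 2 without the filter, 1 with cell type alone, and 1 with limma-trend on FPKM plus 0.1 or plus 1 (536 and 504 of all genes). Those called lower were 8 without the filter. The share of all genes called is not given here for the fits without the filter or with cell type alone. With total-count scaling 1 pathway gene was called higher (Wnt7a) and 1 lower (Kremen1) in BACHD, against 54 and 89 of all genes. Fzd7 log2 ratios of BACHD to WT shrank to -0.68 in D1 and -0.21 in D2 cells on FPKM plus 1, where the added value exceeds most of its levels. Pathway genes higher in D1 BACHD by the size rule were 6 at a ratio of 1.5, 13 without the filter and 0 at 10 CPM. They were 2 with total-count scaling and 2 on FPKM plus 0.1, and 1 gene was lower without the filter. The share of all genes under these changed size rules is not given here, so these numbers say nothing particular to the pathway. Counts of 0 to 30 for Fzd2, Fzd4, Fzd6, Fzd8 and Fzd9 limit what could be seen.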
